A study of Mus musculus with 12 samples.

Results

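Of the 11282 genes that averaged 1 RPKM or more over the 12 samples, 1050 (9.31%) had 6 values in *ptgs2*-KO and *ptges*-KO cells that did not overlap the 6 values in scramble and *ptgs1*-KO cells. These genes, 609 higher and 441 lower in the cells without COX-2 or mPGES-1, are described here. They were found on log2(RPKM + 1), where RPKM is the read number scaled to the length of the transcript and to the size of the library: in a higher gene the lowest of the 6 knockout values was above the highest of the other 6, and in a lower gene the highest was below the lowest. The cells were a murine melanoma line carrying BrafV600E, from a C57BL/6 mouse of genotype Braf+/LSL-V600E;Tyr::CreERT2+/o;p16INK4a-/-, so that all 4 lines shared the oncogenic Braf allele and the loss of p16INK4a. CRISPR/CAS9 had been used to knock out *ptgs1* (COX-1), *ptgs2* (COX-2), or *ptges* (mPGES-1), control cells had received a scramble guide, and RNA of cultured cells was sequenced in 3 samples of each line. Knockout cells had been selected with puromycin and subcloned by limiting dilution, and one source calls the 3 samples of a line subclones and another independent samples. With 2 lines on each side, the loss of these enzymes and any other difference between the lines cannot be told apart: an exact permutation of the lines could not give a two-sided p below 0.333, and of the samples none below 0.00216. The p-values below measure the spread between samples of one line, except where line means or 2 groups of 6 were fitted. In those fits the spread between the lines of a side enters.

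COX-1 and COX-2 convert arachidonic acid, released from membrane phospholipids by phospholipase A2, to prostaglandin H2, from which terminal synthases make the individual prostaglandins. COX-2 is inducible, and mPGES-1, also inducible, works downstream of it to make prostaglandin E2 (PGE2), whereas COX-1 is present in most cells. PGE2 acts on the 4 receptors EP1 to EP4, of which EP2 and EP4 raise cAMP and activate CREB, a factor that binds the cAMP response element in the promoters of immediate early genes such as *Fos*. In tumors, PGE2 made by COX-2 and mPGES-1 is known for promoting inflammation, angiogenesis, and escape from immune attack.

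The depth, estimated from the smallest step of the values, was 13.4 to 17.0 M reads per sample, and Pearson correlations of log2(RPKM + 1) over all genes tested were 0.984 to 0.995 within lines, 0.968 to 0.983 between lines on the same side, and 0.962 to 0.985 between lines on opposite sides. The 6 knockout samples were therefore not closer to each other than to all of the other samples: the median correlation of scramble with *ptgs2*-KO cells was 0.982. *Ptgs1* was measured at 16.9, 16.8, and 14.3 RPKM in *ptgs1*-KO cells against 142, 164, and 149 RPKM in scramble cells. *Ptgs2* was measured at 78.5, 84.6, and 76.1 RPKM in *ptgs2*-KO cells against 749, 777, and 759 RPKM in scramble cells. *Ptges* was at 41, 35.6, and 34.8 RPKM in *ptges*-KO cells against 78, 75, and 79.8 RPKM in scramble cells, and at 56.9, 55, and 51.5 RPKM in *ptgs1*-KO and 69.2, 69.4, and 63.4 RPKM in *ptgs2*-KO cells. Each targeted gene was thus lowest in the line labelled for it, with transcript left in all 3. *Ptges* was also lower in *ptgs1*-KO than in scramble cells (log2 difference -0.50, limma adjusted p = 0.0011), so that the lines set against the 2 knockouts were not alike in it, and *ptgs1*-KO cells had 624, 668, and 502 RPKM of *Ptgs2*. Of 8 melanocyte markers only *Mitf* reached a mean of 1 RPKM, at 2.3 RPKM, and *Tyrp1*, *Dct*, *Mlana*, *Sox10*, and *Slc45a2* were listed at 0 in all 12 samples, so the pigment cell label rests on the origin of the line. No T or B cell marker and no endothelial marker reached 1 RPKM, and of the other marker lists only *Cd14*, *Cd68*, *Krt10*, and *Pdgfra* did. In *ptgs1*-KO replicate 3, ribosomal RNA rows held 13.5% of the summed values against 0.528% to 4.79% in the other samples. Leaving that sample out gave 622 higher and 661 lower genes.

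The 609 higher genes were 5.4% of all genes tested and the 441 lower genes were 3.91%. Since the absence of overlap is how they were chosen, these shares describe the group and test nothing. Each of the 2 knockout lines was then compared with each of the 2 other lines by limma with Benjamini-Hochberg adjusted p over all genes tested, and a gene is said to have risen or fallen only where all 4 comparisons passed an adjusted p of 0.05 in one direction. These comparisons rest on the same values that chose the genes, so that passing them sets the larger differences apart and is no independent evidence. By this count 253 genes rose (2.24% of all genes tested) and 205 fell (1.82%), and 251 and 199 of them had no overlap. The comparison of the mean of both knockout lines with the mean of both other lines gave 1753 genes higher (15.5%) and 1884 lower (16.7%), so that 3179 genes passed it that did not pass all 4 comparisons. The number that rose was 131 to 157 without any single scramble sample, 148 and 167 without *ptgs2*-KO replicate 2 or 3, and 166 without *ptges*-KO replicate 2. The number that fell was 136 without scramble replicate 3 and 129 without *ptgs2*-KO replicate 3. With the 4 line means as the units of the test, 0 genes passed the adjusted p by limma. An unadjusted p under 0.05 was found for 1347 genes (11.9% of all genes tested), of which 782 had no overlap. The no-overlap rule itself sets the line means of the sides apart, so the 782 genes are no independent evidence.

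Among the chosen genes, lower genes differed more than higher genes, a description only, since the same values chose them. The median log2 difference was 0.34 in the higher genes, with a range of 0.09 to 2.90, and -0.51 in the lower genes, with a range of -0.13 to -2.87. The median over all genes tested was -0.02. A log2 difference of at least 1 in size was measured in 22 higher and 66 lower genes. Higher genes were also more abundant: the median of their mean levels was 57.8 RPKM, against 15.6 RPKM in the lower genes and 21.2 RPKM in all genes tested. Among genes of 100 RPKM and above, 12.8% were higher and 3.75% lower, and among genes of 1 to 10 RPKM the order turned, with 1.56% higher and 4.84% lower. The balance of directions depended on the scaling, since a scaling to an equal sum without the 20 highest genes gave 475 higher and 597 lower genes with no overlap, 225 that rose against 300 that fell, and 1474 higher against 2581 lower genes in the comparison of means.

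**Figure D1:**
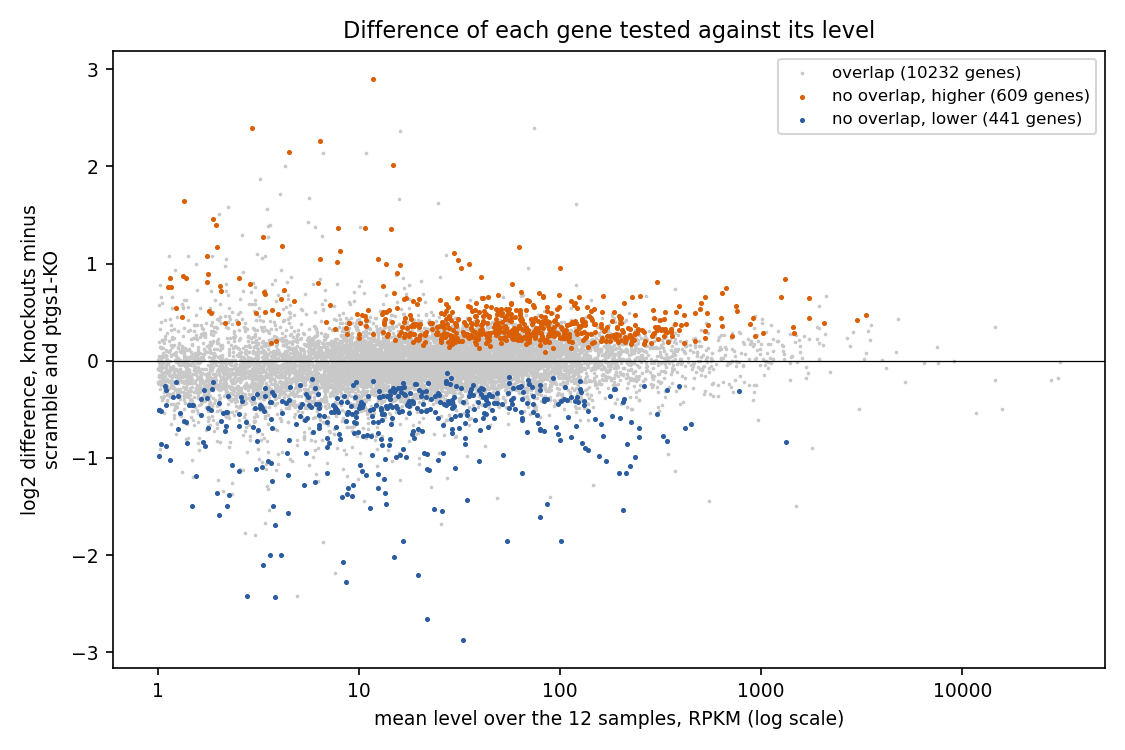
Mean level of each of the 11282 genes tested over the 12 samples (RPKM, log scale) against its log2 difference, *ptgs2*-KO and *ptges*-KO cells minus scramble and *ptgs1*-KO cells, on log2(RPKM + 1). The 609 higher genes (orange) sit mostly above 10 RPKM and below a difference of 1, and the 441 lower genes (blue) extend to -2.87. Grey points are the 10232 genes whose values overlapped.

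The 12 higher genes with the largest difference in the least favorable pair of lines began with *Baiap2l1*, *Rhox5*, *Scml2*, *C1ql3*, and *Eomes*, and all 12 rose. *Baiap2l1* (chromosome 5, 144264525 to 144358112, GRCm38), which encodes an adaptor that links Rac to the actin cytoskeleton, was at 5.12, 3.94, and 4.19 RPKM in *ptgs2*-KO cells and 7.01, 6.67, and 6.77 RPKM in *ptges*-KO cells. It was at 0.62, 0.33, and 0.49 RPKM in scramble cells and 0.02, 0.04, and 0.06 RPKM in *ptgs1*-KO cells. The log2 difference of the means was 2.39 ± 0.08 (SE), and *ptges*-KO cells were the highest of the 4 lines. *Rhox5*, a homeobox gene of the X chromosome best known from the reproductive tract, was at 9.52 to 12.7 RPKM (median 11.2) in the 6 knockout samples and 0.72 to 2.88 RPKM (median 1.57) in the other 6. *Scml2*, a Polycomb protein of the germline, was at 1.77 to 4.22 RPKM (median 2.15) against 0 to 0.41 RPKM (median 0.085), and it was listed at 0 in *ptgs1*-KO replicates 2 and 3. *Eomes*, a T-box transcription factor, was at 2.74 to 3.75 RPKM (median 3.27) against 0.14 to 0.9 RPKM (median 0.575). *Baiap2l1*, *Scml2*, and *Eomes* were thus below 1 RPKM in each scramble and *ptgs1*-KO sample, and passed the filter on low values only through the knockouts.

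*C1ql3*, a secreted C1q-like protein, differed within the knockouts too. It was at 18, 16.2, and 15.9 RPKM in *ptgs2*-KO cells and 31.8, 31, and 33.4 RPKM in *ptges*-KO cells, against 2.91 to 7.5 RPKM (median 5.24) in the other samples. *Igf2bp3*, an oncofetal RNA-binding protein, was 2.91-fold higher in the knockouts, at 10.4 to 13.5 RPKM (median 11.5) against 2.75 to 5.43 RPKM (median 4.16). *Ddah1*, which degrades the nitric oxide synthase inhibitor dimethylarginine, was at 37.1 to 50.8 RPKM (median 39.7) against 17.6 to 19.4 RPKM (median 18.4). Its 6 values in scramble and *ptgs1*-KO cells were the tightest of these genes, whereas *ptges*-KO replicate 1 stood above the other 5 knockout samples.

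Matrix genes were among the 12 as well. *Col5a2*, a fibrillar collagen chain, had the largest mean difference of all higher genes (log2 difference 2.90 ± 0.08), and its level differed within each side: 37.4, 34.7, and 28.9 RPKM in *ptgs2*-KO cells, 9.91, 8.73, and 7.9 RPKM in *ptges*-KO cells, 4.05, 4.11, and 4.27 RPKM in scramble cells, and 0.11, 0.22, and 0.21 RPKM in *ptgs1*-KO cells. All 4 lines were therefore separate from each other for *Col5a2*. *Fbn1*, the microfibril protein fibrillin-1, was at 33.1 to 53 RPKM (median 40.5) against 17.1 to 23 RPKM (median 19.8). *Pcolce2*, an enhancer of procollagen C-proteinase, was at 2 to 3.03 RPKM (median 2.67) against 0.7 to 1.39 RPKM (median 0.89). Its mean over scramble and *ptgs1*-KO samples was 0.947 RPKM, so it passed the filter on low values only through the knockouts. *Cnp*, an enzyme of myelin-forming cells, and *Fam84b* were 3.3-fold higher and 2.83-fold higher.

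The 12 lower genes with the largest least difference began with *Nefm*, *Scara5*, *Tfpi*, *Nptx1*, and *Dll1*, and all 12 fell. *Nefm* (chromosome 14, 68119545 to 68125004, GRCm38), the medium neurofilament chain of neurons, was at 0.23, 0.25, and 0.2 RPKM in *ptgs2*-KO cells and 0.16, 0, and 0.18 RPKM in *ptges*-KO cells. It was at 6.45, 6.29, and 7.04 RPKM in scramble cells and 4.31, 3.76, and 4.3 RPKM in *ptgs1*-KO cells, a log2 difference of -2.42 ± 0.08 (SE). *Nefm* was thus nearly lost in both knockouts. *Nefm*, *Tfpi*, and *Disp2* were below 1 RPKM in each knockout sample, and passed the filter on low values only through scramble and *ptgs1*-KO cells. *Rangrf*, with a mean of 0.558 RPKM over the 6 knockout samples, also passed it only through scramble and *ptgs1*-KO cells. *Scara5*, a scavenger receptor that takes up ferritin, was at 1.94 to 2.52 RPKM (median 2.27) in the knockouts against 11.3 to 18.4 RPKM (median 14.9). *Scara5* had a log2 difference of 0.08 between both knockouts (adjusted p = 0.62 by limma). *Tfpi*, the inhibitor of the tissue factor pathway of coagulation, was at 0.3 to 0.58 RPKM (median 0.46) against 4.76 to 10.9 RPKM (median 6.17), and its highest values were those of *ptgs1*-KO cells.

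*Dll1*, a ligand of Notch receptors, was 4.01-fold lower in the knockouts. It was at 7.01, 6.22, and 5.22 RPKM in *ptgs2*-KO cells, 7.67, 6.45, and 7.15 RPKM in *ptges*-KO cells, 24.4, 27.1, and 25.5 RPKM in scramble cells, and 29.6, 27.7, and 25.2 RPKM in *ptgs1*-KO cells. The log2 difference was 0.18 between the 2 knockouts and 0.09 between the 2 other lines, small beside the -1.86 between the sides. *Clu*, the secreted chaperone clusterin, was the most abundant of the 12, at 38 to 49.3 RPKM (median 42.2) against 144 to 174 RPKM (median 157). *Nptx1*, a neuronal pentraxin, was at 3.65 to 6.71 RPKM (median 4.86) against 21.3 to 54.7 RPKM (median 38.9). *Unc5b*, a netrin receptor that guides growing vessels and axons, was at 28.6 to 51.8 RPKM (median 37.6) against 95.5 to 153 RPKM (median 113).

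*Tspan8*, a tetraspanin of the cell surface, was at 5.39 to 8.61 RPKM (median 6.37) against 15.7 to 26.9 RPKM (median 20.6). *Mamdc2*, *Rangrf*, *Disp2*, and *Tmtc2* were 5.8-fold lower, 11-fold lower, 5.47-fold lower, and 2.7-fold lower. *Mamdc2* was the gene of these whose 2 knockouts differed most, at 0.3, 0.26, and 0.24 RPKM in *ptgs2*-KO and 2.4, 1.96, and 2.02 RPKM in *ptges*-KO cells (adjusted p = 2.5e-06 by limma). The annotated span of 40 of the 101 genes with a position that the rule for named genes took overlapped another gene, among them *Rangrf* with *Slc25a35* and *Baiap2l1* with *Bri3*, and how reads were assigned there is not given in the sources used here.

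**Figure D2:**
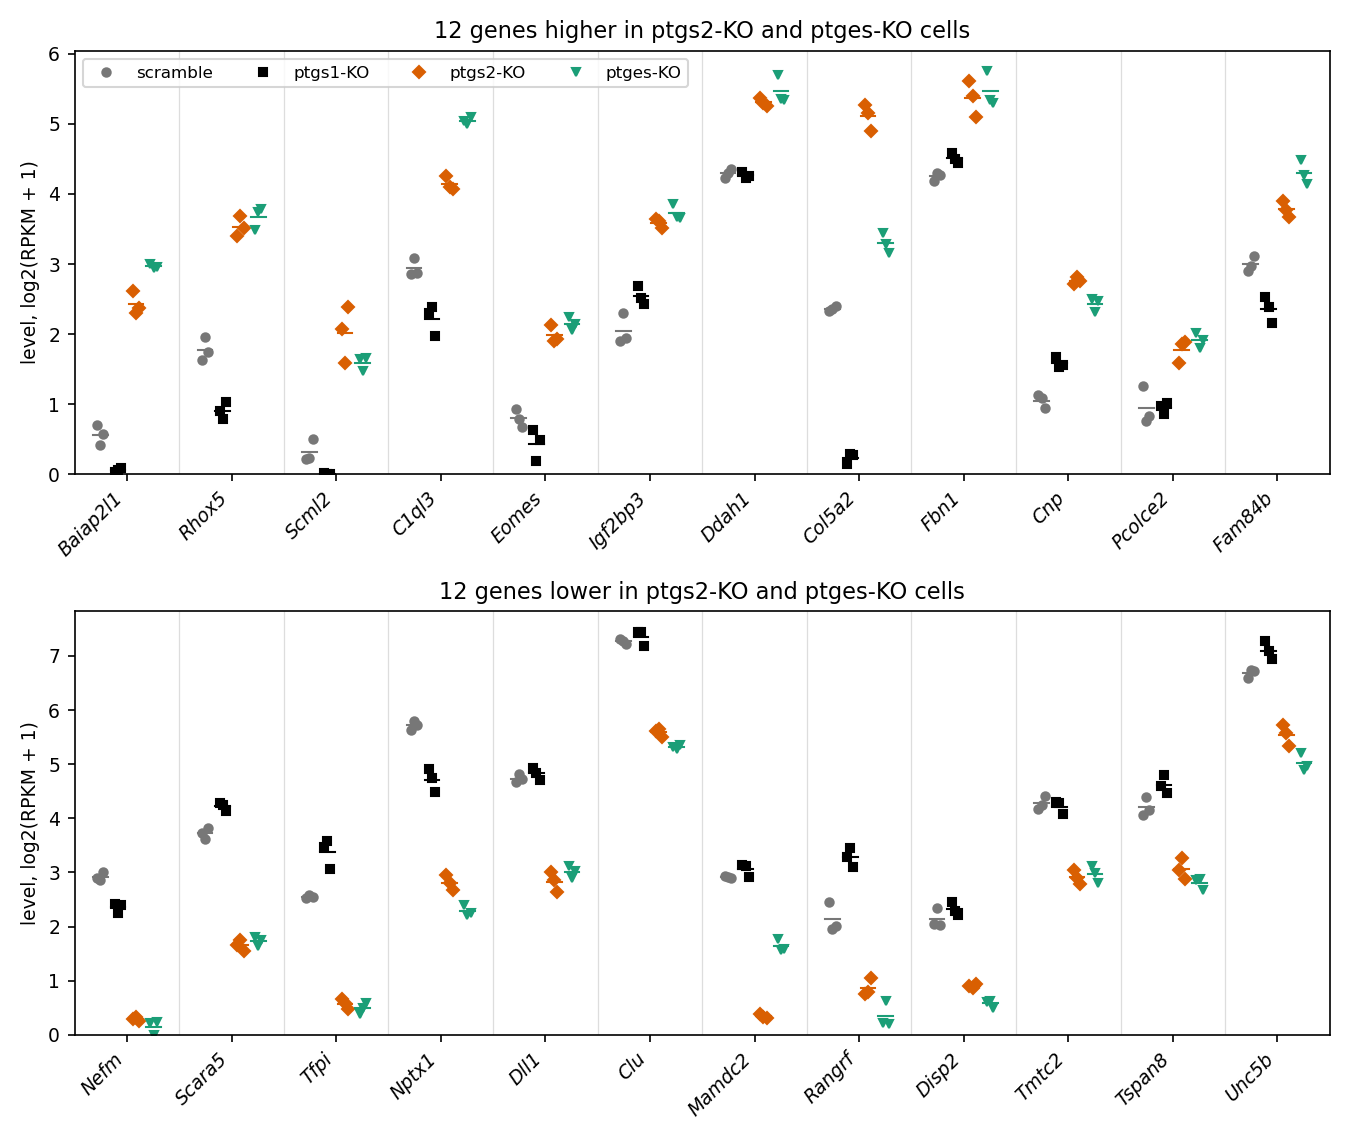
Levels, as log2(RPKM + 1), of the 12 higher genes (top) and the 12 lower genes (bottom) with the largest least line difference. Each point is 1 sample, 3 per line, and each short line is the mean of a line. In every gene the orange and green points (*ptgs2*-KO and *ptges*-KO) lie wholly above or wholly below the grey and black points (scramble and *ptgs1*-KO), and in *Col5a2* and *Mamdc2* the 2 knockouts are themselves apart.

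In the prostaglandin pathway, 19 of 29 listed enzymes and transporters were tested, 1 was higher with no overlap and 2 were lower, and the median difference was -0.06. The higher share was 5.26%, against 5.4% of all genes tested. The lower share, 2 of 19 genes, was above the 3.91% of all genes tested. *Ptges3*, the cytosolic prostaglandin E synthase and a cochaperone of Hsp90, rose from 264 to 302 RPKM (median 284) to 338 to 370 RPKM (median 352), a log2 difference of 0.32 ± 0.05 (SE). *Pla2g15*, a lysosomal phospholipase A2, fell from 17 to 23.5 RPKM (median 20.5) to 8.34 to 11.3 RPKM (median 10.1) (log2 difference -0.99 ± 0.09), and its values in both knockouts were close. *Akr1c14*, a dehydrogenase of the aldo-keto reductase family, was at 6.74 to 11.2 RPKM (median 8.95) against 12.2 to 23.6 RPKM (median 15.7), without passing all 4 comparisons. *Pla2g4a*, the cytosolic phospholipase A2 that feeds both cyclooxygenases, was at 108 ± 1.73 RPKM (SD, n = 3) in scramble cells, 99.7 ± 2.64 RPKM in *ptgs2*-KO cells, and 132 ± 3.39 RPKM in *ptges*-KO cells. Of the prostanoid receptors 3 of 10 were tested and 0 had no overlap. *Ptger1* (EP1) was the most abundant, at 24.6 ± 2.64 RPKM and 20.2 ± 1.55 RPKM in the 2 knockouts and 28.6 ± 2.23 RPKM and 29 ± 1.76 RPKM in scramble and *ptgs1*-KO cells, and *Ptger4* (EP4) was at 1.92 ± 0.653 RPKM in *ptgs2*-KO cells and 1.04 ± 0.261 RPKM in *ptges*-KO cells. By the average contrast of limma, *Ptger1* had an adjusted p of 0.0016 and *Ptger4* of 0.012, but neither separated the 2 sides in each sample.

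The members that belong to the immediate early and cAMP-responsive genes were few and of both directions. Of 17 AP-1 and immediate early genes tested, 4 were lower with no overlap (*Fos*, *Fosb*, *Junb*, and *Klf2*) and 1 was higher (*Fosl1*), with a median difference of -0.17. The lower share was 23.5%, against 3.91% of all genes tested, and the higher share 5.88%, against 5.4%. *Fos*, a subunit of the AP-1 transcription factor, fell to 5.9, 5.23, and 5.06 RPKM in *ptgs2*-KO cells and 4.02, 4.97, and 5.07 RPKM in *ptges*-KO cells. It was at 12.7, 10.9, and 13.9 RPKM in scramble cells and 13.5, 16.1, and 15.2 RPKM in *ptgs1*-KO cells, for a log2 difference of -1.28 ± 0.08 (SE). *Fosb*, its close relative, fell from 26.2 to 30 RPKM (median 27.8) to 10.4 to 19.7 RPKM (median 13.5), and of the knockouts *ptges*-KO cells had the lower values (log2 difference -0.56, limma adjusted p = 0.002). *Junb* was at 50 to 54.5 RPKM (median 52.6) against 55.4 to 65.3 RPKM (median 59.5), a small difference (-0.17 ± 0.05) that did not pass all 4 comparisons. *Klf2*, a transcription factor of quiescent and endothelial cells, was at 1.78 to 2.39 RPKM (median 2.13) against 2.59 to 5.84 RPKM (median 4.04), and it lost the separation under 1 of 4 scalings. *Fosl1*, the AP-1 subunit that follows sustained MAPK signaling, was at 188 to 227 RPKM (median 202) against 157 to 184 RPKM (median 181), a separation that held with the deposited scaling alone among the 4 scalings.

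Of 20 cAMP and CREB genes tested, *Areg* alone had no overlap (5% higher, against 5.4% of all genes tested), and the median difference of the list was 0.03. *Areg*, a ligand of the epidermal growth factor receptor, was at 39.7, 41, and 40 RPKM in *ptgs2*-KO and 44.7, 42.7, and 44.6 RPKM in *ptges*-KO cells, against 37, 34.8, and 36.6 RPKM in scramble and 21.9, 21.7, and 23 RPKM in *ptgs1*-KO cells. The knockouts were just above scramble cells and well above *ptgs1*-KO cells, and *Areg* did not pass all 4 comparisons (largest adjusted p = 0.15 by limma). Among the other genes of the list, *Nr4a1* was at 33.9 ± 2.65 RPKM and 38 ± 1.66 RPKM in the 2 knockouts (SD, n = 3) against 29.6 ± 2.02 RPKM in scramble cells, and *Nr4a2* at 3.19 ± 0.386 RPKM and 4.32 ± 0.316 RPKM against 4.73 ± 0.765 RPKM.

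The promoters of *Areg* and of the 3 AP-1 genes with lower values are shown because the 4 carry the first letters of a cAMP response element, while *Areg* was higher and the others lower. Each sequence is the 250 bases before the RefSeq start (GRCm38.p6), 5′ to 3′ on the strand of the gene, with capitals for these letters, TGACG, found on either strand.
Areg (chr5:91139349-91139598, plus strand): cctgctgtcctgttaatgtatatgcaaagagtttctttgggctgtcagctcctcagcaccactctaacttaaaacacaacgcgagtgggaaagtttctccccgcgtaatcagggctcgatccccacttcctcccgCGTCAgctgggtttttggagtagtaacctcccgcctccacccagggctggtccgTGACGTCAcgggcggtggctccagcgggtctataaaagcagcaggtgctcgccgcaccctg
Fos (chr12:85473640-85473889, plus strand): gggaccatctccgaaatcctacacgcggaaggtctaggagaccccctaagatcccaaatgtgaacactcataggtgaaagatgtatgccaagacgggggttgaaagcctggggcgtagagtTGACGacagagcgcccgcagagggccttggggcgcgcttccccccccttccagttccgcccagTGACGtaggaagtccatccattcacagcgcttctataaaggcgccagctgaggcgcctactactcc
Fosb (chr7:19310046-19310295, minus strand): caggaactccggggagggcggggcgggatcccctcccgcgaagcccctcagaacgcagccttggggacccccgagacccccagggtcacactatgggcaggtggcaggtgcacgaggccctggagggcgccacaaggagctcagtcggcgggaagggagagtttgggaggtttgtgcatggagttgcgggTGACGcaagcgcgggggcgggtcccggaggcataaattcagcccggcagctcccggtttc
Junb (chr8:84978749-84978998, minus strand): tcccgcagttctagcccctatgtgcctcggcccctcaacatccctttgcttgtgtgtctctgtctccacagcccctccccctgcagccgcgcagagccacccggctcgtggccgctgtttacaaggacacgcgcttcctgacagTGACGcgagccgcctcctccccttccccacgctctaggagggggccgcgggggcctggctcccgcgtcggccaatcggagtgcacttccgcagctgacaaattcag
In *Areg* the letters stood at -115, and again at -61 and -58 where they overlap as the full palindrome TGACGTCA, counted from the start site. In *Fos* they stood at -129 and -66, in *Fosb* at -60, and in *Junb* at -106. The AP-1 letters TGANTCA and the CArG box, searched on both strands, were not in these 4 windows, which for the search also took in the 50 bases after the start. TGACG was present in 21% of all 27025 promoter windows of that whole length and in 34.2% of the 8650 windows matched to genes tested, and TGACGTCA in 1.88% and 3.61%, so these matches describe the sequences and are not evidence of binding.

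Chemokines and cytokines were seldom expressed in these cells, and those that separated the 2 sides were all lower. Of 37 listed genes 10 were tested and 4 were lower with no overlap (40%, against 3.91% of all genes tested). This and the other lists were chosen with earlier results of these data known, so their shares are descriptions and test nothing. They were *Cx3cl1*, *Il11*, *Il34*, and *Socs3*, each of which fell, with a median difference over the 10 genes of -0.47. *Socs3*, which the list includes, is an inhibitor of cytokine signaling and not itself a cytokine. *Cx3cl1*, the membrane-bound chemokine fractalkine, was at 32.4, 30, and 27.6 RPKM in *ptgs2*-KO and 10.4, 9.8, and 9.56 RPKM in *ptges*-KO cells. It was at 45.7, 49.2, and 45.4 RPKM in scramble and 60.1, 50.1, and 43.6 RPKM in *ptgs1*-KO cells. It was thus lowered in both knockouts, and more in *ptges*-KO cells (log2 difference between the knockouts -1.50, limma adjusted p = 5.8e-07). *Il34*, a ligand of the macrophage receptor Csf1r, fell from 31.4 to 42.4 RPKM (median 34.4) to 20.9 to 26.5 RPKM (median 24.6). *Csf1*, the other ligand of that receptor and a far more abundant transcript here, did not follow it, since the 436 ± 2.62 RPKM (SD, n = 3) of scramble cells lay between the 582 ± 69.5 RPKM of *ptgs2*-KO cells and the 312 ± 26.3 RPKM of *ptges*-KO cells. *Socs3*, the feedback inhibitor induced by IL-6 family cytokines through STAT3, fell from 37.4 to 53 RPKM (median 41.9) to 20.8 to 26.6 RPKM (median 23.9) (log2 difference -0.86 ± 0.06). *Il11*, a cytokine of that family, was low throughout, at 1.1 to 1.84 RPKM (median 1.43) against 2.21 to 3.39 RPKM (median 2.58), and it passed all 4 comparisons in 6 of the 12 fits that each left out 1 sample. *Stat2*, a mediator of type I interferon signaling, alone of 18 interferon and MHC class I genes tested had no overlap (5.56% lower, against 3.91%). It fell from 5.85 to 7.12 RPKM (median 6.15) to 3.54 to 4.37 RPKM (median 3.85).

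Growth factors, their receptors, and binding proteins gave 7 lower and 3 higher genes of 27 tested (median difference -0.36). These were 25.9% and 11.1% of the list, against 3.91% and 5.4% of all genes tested. *Igfbp3*, which binds insulin-like growth factors, fell from 176, 175, and 160 RPKM in scramble and 497, 481, and 386 RPKM in *ptgs1*-KO cells to 69.3, 76.7, and 66.7 RPKM in *ptgs2*-KO and 127, 124, and 130 RPKM in *ptges*-KO cells. The 4 lines formed 4 separate levels, with the COX-1 knockout at the top. *Btc*, a ligand of the epidermal growth factor receptor family, fell from 32.2 to 51.5 RPKM (median 35.5) to 8.02 to 18.1 RPKM (median 13), and *Erbb2*, a receptor of that family, from 50.8 to 64 RPKM (median 56) to 32.7 to 41.9 RPKM (median 36.9). The receptors of platelet-derived growth factor fell together, *Pdgfra* from 7.82 to 11.1 RPKM (median 9.12) to 3.36 to 5.83 RPKM (median 4.65) and *Pdgfrb* from 9.17 to 23.8 RPKM (median 14.1) to 4.53 to 7.1 RPKM (median 6.24), the latter in 5 of the 12 fits without 1 sample. *Kitl*, the ligand of the melanocyte receptor Kit, fell from 19.6 to 26.4 RPKM (median 20.6) to 7.13 to 15.7 RPKM (median 11.5), and *Mertk*, a receptor for the uptake of dying cells, from 22.9 to 29.3 RPKM (median 25.3) to 10.9 to 20.5 RPKM (median 15.4). Of the higher genes *Fgf7* rose from 19.1 to 22.8 RPKM (median 20.9) to 27.5 to 32 RPKM (median 30.2). *Areg* and *Vegfc*, a lymphatic growth factor, did not pass all 4 comparisons.

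Genes of the extracellular matrix and of its receptors were lower in most of the cases without overlap. Among matrix glycoproteins, laminins, and integrins, 6 of 26 tested were lower (23.1%, against 3.91% of all genes) and 1 was higher (3.85%, against 5.4%), and the 6 all fell. The median difference of the list was -0.34. *Spp1*, the secreted phosphoprotein osteopontin, fell from 1519 to 1913 RPKM (median 1677) to 681 to 1256 RPKM (median 940). *Lama5*, a chain of basement membrane laminins, was at 213, 179, and 153 RPKM in *ptgs2*-KO, 140, 92.6, and 96.9 RPKM in *ptges*-KO, 305, 360, and 359 RPKM in scramble, and 296, 262, and 221 RPKM in *ptgs1*-KO cells, with the closest values, 213 and 221 RPKM, in a *ptgs2*-KO and a *ptgs1*-KO sample. *Lamb2*, a laminin beta chain, fell from 69.4 to 87.6 RPKM (median 74.5) to 44.7 to 57.9 RPKM (median 50.3), and *Agrn*, the heparan sulfate proteoglycan agrin, from 29.1 to 39.3 RPKM (median 32.7) to 13.3 to 19 RPKM (median 16.1). The laminin-binding integrin chains fell as well, *Itga6*, in 6 of the 12 fits without 1 sample, from 228 to 326 RPKM (median 260) to 146 to 222 RPKM (median 169) and *Itga7* from 190 to 237 RPKM (median 199) to 94.6 to 121 RPKM (median 102).

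Of 11 collagen genes tested, 4 were lower with no overlap (36.4%, against 3.91% of all genes tested). *Col5a2* was higher (9.09%, against 5.4%), and the median difference was -0.55. The study selected collagen genes for display on these same samples, so this list is not independent evidence of its direction. *Col3a1*, a fibrillar chain, fell from 367 to 475 RPKM (median 437) to 324, 296, and 251 RPKM in *ptgs2*-KO and 224, 196, and 192 RPKM in *ptges*-KO cells. *Col4a1*, a basement membrane chain, fell from 477 to 565 RPKM (median 518) to 279 to 398 RPKM (median 314). *Col4a2*, its partner chain from the neighboring gene, was at 203 to 320 RPKM (median 244) against 329 to 394 RPKM (median 360), and *Col16a1* at 20 to 31.5 RPKM (median 22.6) against 31.8 to 37.4 RPKM (median 33.1). The latter pair did not pass all 4 comparisons and lost the separation under 1 of 4 scalings. *ptges*-KO cells were below *ptgs2*-KO cells by limma in 8 of the 11 collagen genes and above them in 0, where 9.84% of all genes tested were below and 6.76% above, among them *Col8a1* at 144 ± 18.3 RPKM (SD, n = 3) against 252 ± 35.2 RPKM and *Col18a1* at 2.81 ± 0.136 RPKM against 15.2 ± 2.14 RPKM. Both genes were near the scramble level in *ptgs2*-KO cells, 237 ± 7.77 RPKM and 13.3 ± 0.465 RPKM, and are therefore not among the genes without overlap.

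Enzymes that process collagen were lower in 4 of 19 tested with no overlap (21.1%, against 3.91% of all genes tested). *Pcolce2*, described above, was the 1 higher gene of the list (5.26%, against 5.4%). *Bmp1*, the procollagen C-proteinase, fell from 89.7 to 116 RPKM (median 92) to 52.1 to 71.4 RPKM (median 56.7), *Adamts14*, which removes the N-propeptide, from 19.2 to 27.8 RPKM (median 23.4) to 11.1 to 18.1 RPKM (median 13.7), and *Loxl3*, which cross-links collagen and elastin, from 22.9 to 39.6 RPKM (median 29.1) to 9.37 to 19.1 RPKM (median 13.2). *Adamts14* passed all 4 comparisons in 8 of the 12 fits without 1 sample. *Lepre1*, a prolyl 3-hydroxylase, was at 14.9 to 20.1 RPKM (median 18.2) against 20.3 to 31.7 RPKM (median 25.7) and did not pass all 4 comparisons. *Mmp11*, a stromelysin, and *Plat*, the tissue plasminogen activator, were the 2 of 19 matrix proteases and inhibitors with no overlap. *Plat* fell from 45 to 60.1 RPKM (median 52.9) to 19.2 to 33.8 RPKM (median 24.7), and *Mmp11* from 40.7 to 54.4 RPKM (median 52.5) to 33.8 to 40.6 RPKM (median 37). *Mmp11* passed all 4 comparisons in 9 of the 12 fits without 1 sample. Of 17 adhesion genes, *Vcam1*, a ligand of leukocyte integrins, fell from 196, 202, and 187 RPKM in scramble and 173, 184, and 140 RPKM in *ptgs1*-KO cells to 100, 100, and 88 RPKM in *ptgs2*-KO and 96.8, 90.8, and 89.3 RPKM in *ptges*-KO cells. The values of both knockouts lay within 88 to 100 RPKM.

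**Figure D3:**
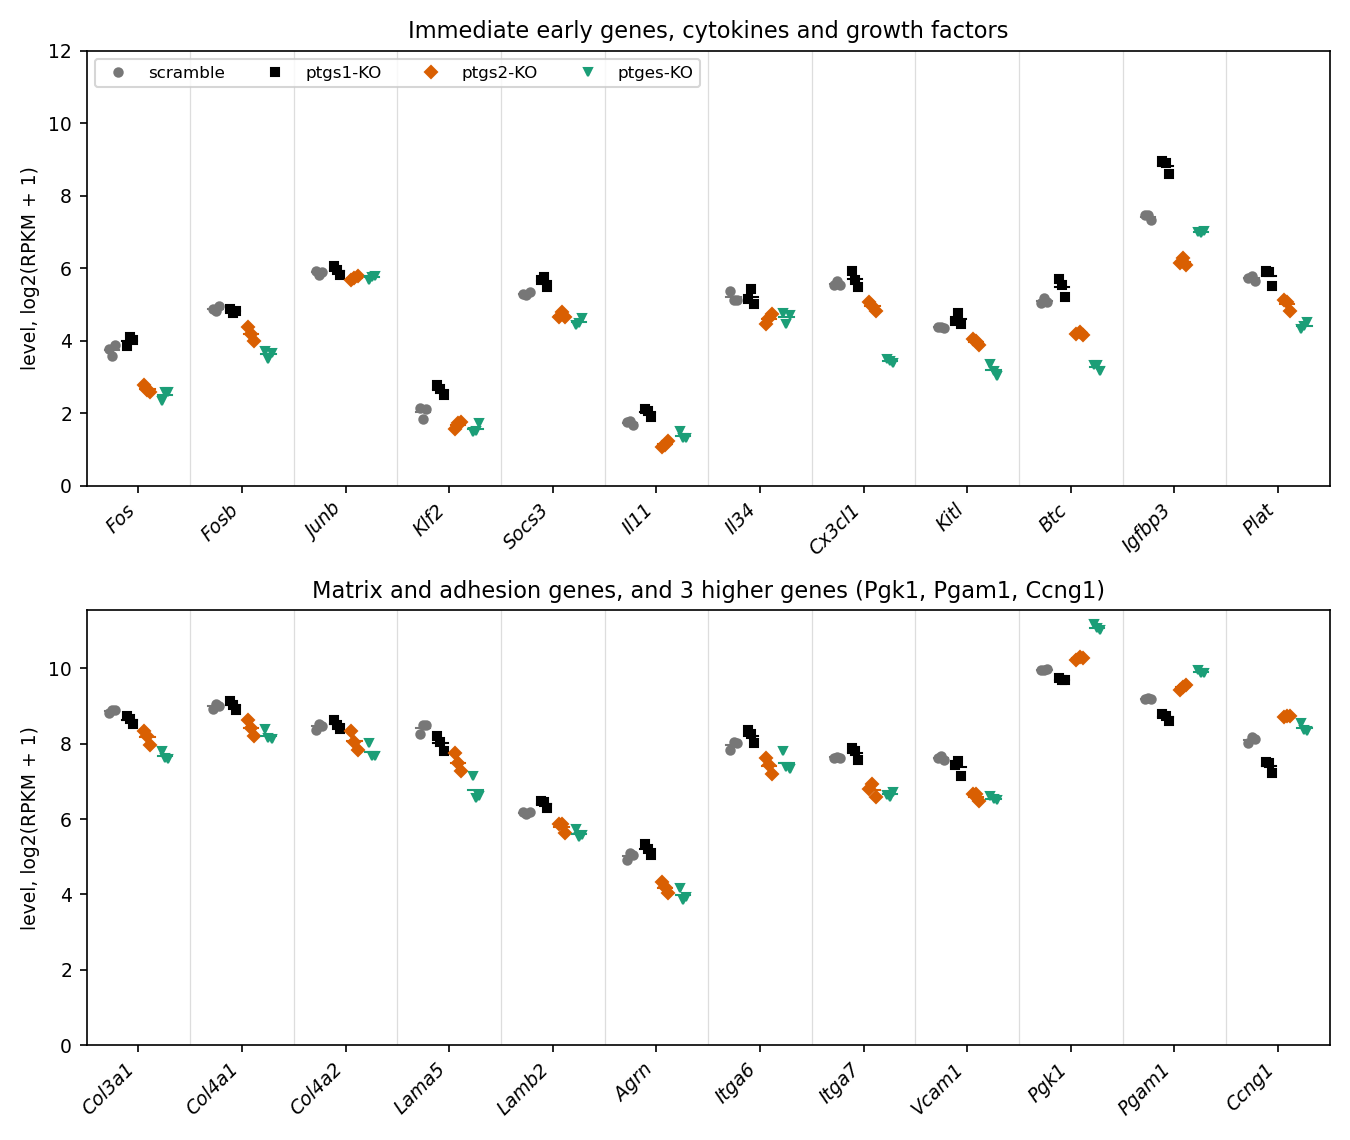
Levels, as log2(RPKM + 1), of 24 members from the gene lists. Each point is 1 sample, 3 per line, and each short line is the mean of a line. *Fos*, *Socs3*, *Il34*, and *Vcam1* are close in both knockouts, whereas *Cx3cl1*, *Kitl*, and *Btc* are lowest in *ptges*-KO cells and *Igfbp3* is highest in *ptgs1*-KO cells. *Pgk1*, *Pgam1*, and *Ccng1* are the higher genes shown.

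Of 30 genes of glycolysis and of the response to hypoxia tested, 5 were higher with no overlap (*Hk2*, *Gpi1*, *Aldoa*, *Pgk1*, and *Pgam1*), 0 were lower, and the median difference was 0.43. The 5 higher genes were 16.7% of the list, against 5.4% of all genes tested. *Pgk1*, phosphoglycerate kinase, was at 1191, 1263, and 1244 RPKM in *ptgs2*-KO and 2316, 2134, and 2060 RPKM in *ptges*-KO cells. It was at 998, 992, and 1011 RPKM in scramble and 851, 818, and 821 RPKM in *ptgs1*-KO cells. *Pgk1* and *Pgam1*, phosphoglycerate mutase, rose, the latter from 389 to 593 RPKM (median 513) to 685 to 984 RPKM (median 844). Both passed all 4 comparisons in 7 of the 12 fits without 1 sample, and failed when any 1 scramble sample or *ptgs2*-KO replicate 2 or 3 was left out. *Aldoa*, aldolase, was at 1154 to 1893 RPKM (median 1536) against 811 to 1107 RPKM (median 994), *Gpi1*, glucose phosphate isomerase, at 339 to 560 RPKM (median 447) against 263 to 337 RPKM (median 318), and *Hk2*, hexokinase, at 32.6 to 60.2 RPKM (median 43.1) against 27.2 to 31.7 RPKM (median 29.3), none of which passed all 4 comparisons. In the list 21 of 30 genes were above *ptgs2*-KO cells in *ptges*-KO cells and 2 were below, where 16.6% of all genes tested differed between these lines in either direction. In *ptgs1*-KO cells 14 of 30 were below scramble cells and 0 above, where 9.26% of all genes tested differed in either direction. By the average contrast 25 of 30 were higher and 0 lower, where 15.5% of all genes were higher, a count to which *ptgs1*-KO and *ptges*-KO cells contributed from opposite sides. *Ldha*, for example, was at 1354 ± 118 RPKM (SD, n = 3) in *ptgs1*-KO, 1889 ± 19.9 RPKM in scramble, 2108 ± 218 RPKM in *ptgs2*-KO, and 3050 ± 90 RPKM in *ptges*-KO cells. Several of these enzymes have processed copies in the genome that can share reads.

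Targets of p53 gave 4 higher and 1 lower gene of 18 tested, with a median difference of 0.36. The shares were 22.2% and 5.56%, against 5.4% and 3.91% of all genes tested. *Ccng1*, cyclin G1, rose from 257, 287, and 278 RPKM in scramble and 183, 178, and 147 RPKM in *ptgs1*-KO cells to 421, 422, and 422 RPKM in *ptgs2*-KO and 373, 325, and 324 RPKM in *ptges*-KO cells. *Pmaip1*, the proapoptotic protein Noxa, rose from 19.6 to 24.9 RPKM (median 22.3) to 27.6 to 38.6 RPKM (median 33.6), and *Plk2*, a polo-like kinase, from 26.3 to 36.9 RPKM (median 32.5) to 45 to 56.4 RPKM (median 50.6). *Gtse1*, which restrains p53 in dividing cells, was at 66.3 to 95.3 RPKM (median 83.4) against 39.4 to 65.2 RPKM (median 53.7), and *Bbc3*, the proapoptotic protein Puma, was lower, at 19.5 to 20.8 RPKM (median 20.1) against 21.4 to 25.9 RPKM (median 23.5). *Gtse1* and *Bbc3* did not pass all 4 comparisons. In this list too *ptgs1*-KO cells were below scramble cells, in 11 of 18 genes by limma and above in 0, where 4.61% of all genes tested were below and 4.65% above. By the average contrast 15 of 18 were higher, where 15.5% of all genes were. *Cdkn1a*, the p53-induced inhibitor of cyclin-dependent kinases, was at 91.6 ± 6.36 RPKM (SD, n = 3) in *ptgs1*-KO, 133 ± 4.15 RPKM in scramble, 172 ± 2.64 RPKM in *ptgs2*-KO, and 131 ± 4.16 RPKM in *ptges*-KO cells, so that *ptges*-KO cells were close to scramble cells.

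Cell cycle genes gave 6 higher and 1 lower gene of 35 tested, with a median difference of 0.13. The shares were 17.1% and 2.86%, against 5.4% and 3.91% of all genes tested. *Ccna2*, cyclin A2, rose from 215 to 319 RPKM (median 285) to 381 to 397 RPKM (median 390). *Rrm2*, a subunit of ribonucleotide reductase, rose from 110 to 134 RPKM (median 125) to 149 to 182 RPKM (median 161). *Aurka*, *Kif23*, *Mcm3*, and *Cdc6* were 1.2-fold higher, 1.21-fold higher, 1.16-fold higher, and 1.23-fold higher with no overlap, without passing all 4 comparisons, and *Aurka* and *Mcm3* kept the separation in 2 of 4 scalings. *Cdkn1b*, the inhibitor p27, was 1.28-fold lower, in 2 of 4 scalings. *Mki67* and *Top2a*, the usual markers of proliferation, were at 384 ± 52.7 RPKM and 364 ± 27.6 RPKM (SD, n = 3) in *ptgs2*-KO cells against 346 ± 38 RPKM and 339 ± 23.4 RPKM in scramble cells, and had limma adjusted p of 0.52 and 0.31 in the average contrast.

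Of the remaining lists, cholesterol and fatty acid synthesis gave 4 lower genes of 32 tested (12.5%, against 3.91% of all genes tested). Of these *Tm7sf2*, a sterol reductase, fell from 14.7 to 19.4 RPKM (median 16.9) to 7.03 to 10.2 RPKM (median 9.07). *Mvd*, *Nsdhl*, and *Insig1* were 1.34-fold lower, 1.24-fold lower, and 1.29-fold lower, without passing all 4 comparisons. Targets of NRF2 differed in both directions: *Hmox1*, heme oxygenase, rose from 37.1 to 47.2 RPKM (median 44.5) to 52.1 to 57.4 RPKM (median 54.5), *Nqo1*, a quinone reductase, fell from 25.2 to 33.8 RPKM (median 28.9) to 20.6 to 23.3 RPKM (median 20.9), and *Me1*, malic enzyme, was 1.19-fold higher without passing all 4. The call of *Hmox1* was the least stable of the named genes that rose or fell, since it held in only 2 of the 12 fits without 1 sample, those without *ptgs1*-KO replicate 1 or 3, and that of *Nqo1* held in 7. Of 13 melanocyte lineage and neural crest genes only *Aqp1*, a water channel, had no overlap (7.69% lower, against 3.91% of all genes tested). It was at 10.7, 11.2, and 12.4 RPKM in scramble and 41.2, 41.1, and 33.5 RPKM in *ptgs1*-KO cells. It fell to 6.46, 6.5, and 7.07 RPKM in *ptgs2*-KO and 2.21, 3.6, and 2.9 RPKM in *ptges*-KO cells. *ptgs1*-KO cells thus stood above scramble cells for *Aqp1* by a log2 difference of 1.67 (limma adjusted p = 1.9e-06). Of 28 TGF-beta, BMP, and YAP genes, *Ltbp3*, which stores latent TGF-beta in the matrix, fell from 146 to 191 RPKM (median 155) to 99.7 to 130 RPKM (median 112), and *Skil*, a repressor of SMAD proteins, was 1.44-fold higher without passing all 4. *Ltbp3* passed all 4 in 4 of the 12 fits without 1 sample. Each of these 2 genes made up 3.57% of the list, against 3.91% of all genes tested lower and 5.4% higher. The MAPK list gave *Phlda1* and *Fosl1* of 18 (11.1%, against 5.4% of all genes tested), 1.26-fold higher and 1.17-fold higher. Neither passed all 4, and the median difference of the list was -0.17. By the average contrast 9 of its 18 genes were lower and 4 higher, where 16.7% and 15.5% of all genes were. The ER stress list gave *Hsp90b1* of 29 (3.45%, against 5.4% of all genes tested), 1.21-fold higher and with no overlap in 2 of 4 scalings. The adhesion list gave *Pkp2*, 1.49-fold higher, and *Cldn1*, 1.82-fold lower, neither of which passed all 4. With *Vcam1* counted, the shares of that list were 5.88% higher and 11.8% lower, against 5.4% and 3.91% of all genes tested.

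**Figure D4:**
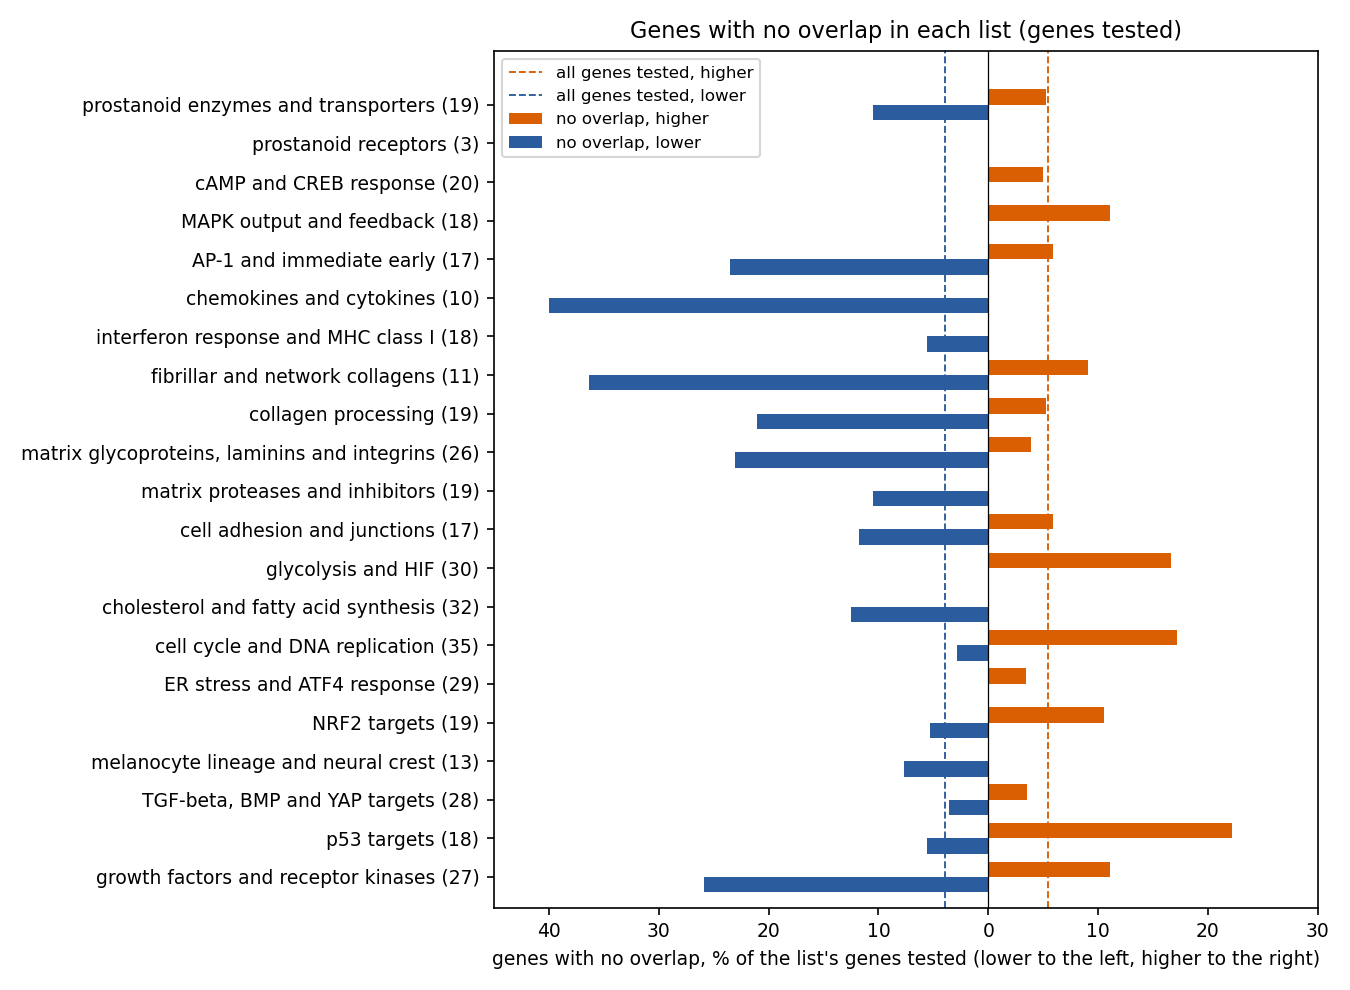
Share of the tested genes of each of the 21 lists that were higher (orange, to the right) or lower (blue, to the left) with no overlap, with the number tested in parentheses. Dashed lines mark the shares among all genes tested, 5.4% higher and 3.91% lower. The longest bars to the left are those of chemokines and cytokines (40%) and of collagens (36.4%), and to the right that of p53 targets (22.2%), with 10, 11, and 18 genes behind them.

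How far the members were shared by both knockouts and by both other lines is described within each side. The absence of overlap depends on the spread of all 6 values of a side, so the counts that follow are not independent of the choice of genes. Between *ptges*-KO and *ptgs2*-KO cells, 70 of the 609 higher genes (11.5%) and 82 of the 441 lower genes (18.6%) differed by limma, against 16.6% of all genes tested. In the higher genes 50 were above and 20 below *ptgs2*-KO cells in *ptges*-KO cells, and in the lower genes 17 were above and 65 below. Where the knockouts differed, *ptges*-KO cells were therefore mostly the ones farther from the other lines. Between *ptgs1*-KO and scramble cells, 92 of the higher genes (15.1%) and 70 of the lower genes (15.9%) differed, against 9.26% of all genes. Of these 92, 87 were below scramble cells in *ptgs1*-KO cells, and of the 70, 63 were above. In most of the genes that differed within the other lines, *ptgs1*-KO cells were thus on the far side of scramble cells from the knockouts, a position that the absence of overlap itself favors. In 470 higher and 307 lower genes neither pair differed by this test, which does not show that the levels were equal.

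The members were unevenly placed in the genome, which the choice did not use either. Of 532 genes tested on chromosome 3, 108 (20.3%) were higher with no overlap and 5 (0.94%) were lower, against 4.86% and 4.05% of the 10175 genes tested on all other chromosomes. On those other chromosomes the share of higher genes was between 3.05% and 6.47%. Of the 253 genes that rose, 62 were on chromosome 3, 190 on the other chromosomes, and 1 had no position. Leaving chromosome 3 out left 501 higher and 436 lower genes with no overlap, and 184 that rose and 200 that fell when p-values were adjusted over the remaining genes. The members on chromosome 3 named above were *Ccna2* (chromosome 3, 36564865 to 36573038, GRCm38), *Skil* (chromosome 3, 31095058 to 31122923), *Ddah1* (chromosome 3, 145758692 to 145894277), and, lower, *Vcam1* (chromosome 3, 116110020 to 116129688).

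Most of the higher genes lay in 1 part of the chromosome. In its first 100 Mb, a boundary set after the values were seen, 97 of 338 genes (28.7%) were higher and 0 lower, and after it 11 of 194 (5.67%) were higher and 5 lower. All 3 knockouts departed from scramble cells there. In *ptgs1*-KO cells the median log2 difference from scramble cells was -0.29 in the first 100 Mb and -0.27 after it, and it was below 0 in 16 of 16 windows of 10 Mb. In *ptgs2*-KO cells it was 0.18 and 0.20 and above 0 in each window. In *ptges*-KO cells it was 0.19 in the first part and -0.22 in the second. On the other chromosomes the medians of the 3 knockouts were 0.02, 0.01, and -0.02.

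Single samples followed their lines. The median deviation of the genes of the first part from their mean over 12 samples was 0.18, 0.18, and 0.09 in the 3 *ptgs2*-KO samples, 0.22, 0.18, and 0.16 in the 3 *ptges*-KO samples, -0.01, -0.06, and 0.0024 in scramble cells, and -0.24, -0.27, and -0.41 in *ptgs1*-KO cells. After 100 Mb the deviation was 0.30, 0.29, and 0.22 in *ptgs2*-KO cells and -0.07, -0.15, and -0.16 in *ptges*-KO cells. The 2 knockouts were thus alike in the first part and apart in the second. Of 202 windows of 10 Mb with at least 20 genes tested, 9 had a median difference between the sides of at least 0.2 in size, and 6 of these were on chromosome 3. The others were at 20 to 30 Mb of chromosome 13 (median -0.41, 68 genes), 30 to 40 Mb of chromosome 16 (-0.21, 68 genes), and 130 to 140 Mb of the X chromosome (0.21, 27 genes). The 2 knockouts did not share the difference on chromosome 16. There the median difference from scramble cells was 0.07 in *ptgs2*-KO and -0.34 in *ptges*-KO cells. The number of copies of chromosome 3 in these lines was not measured, and its part in the higher genes was not tested.

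**Figure D5:**
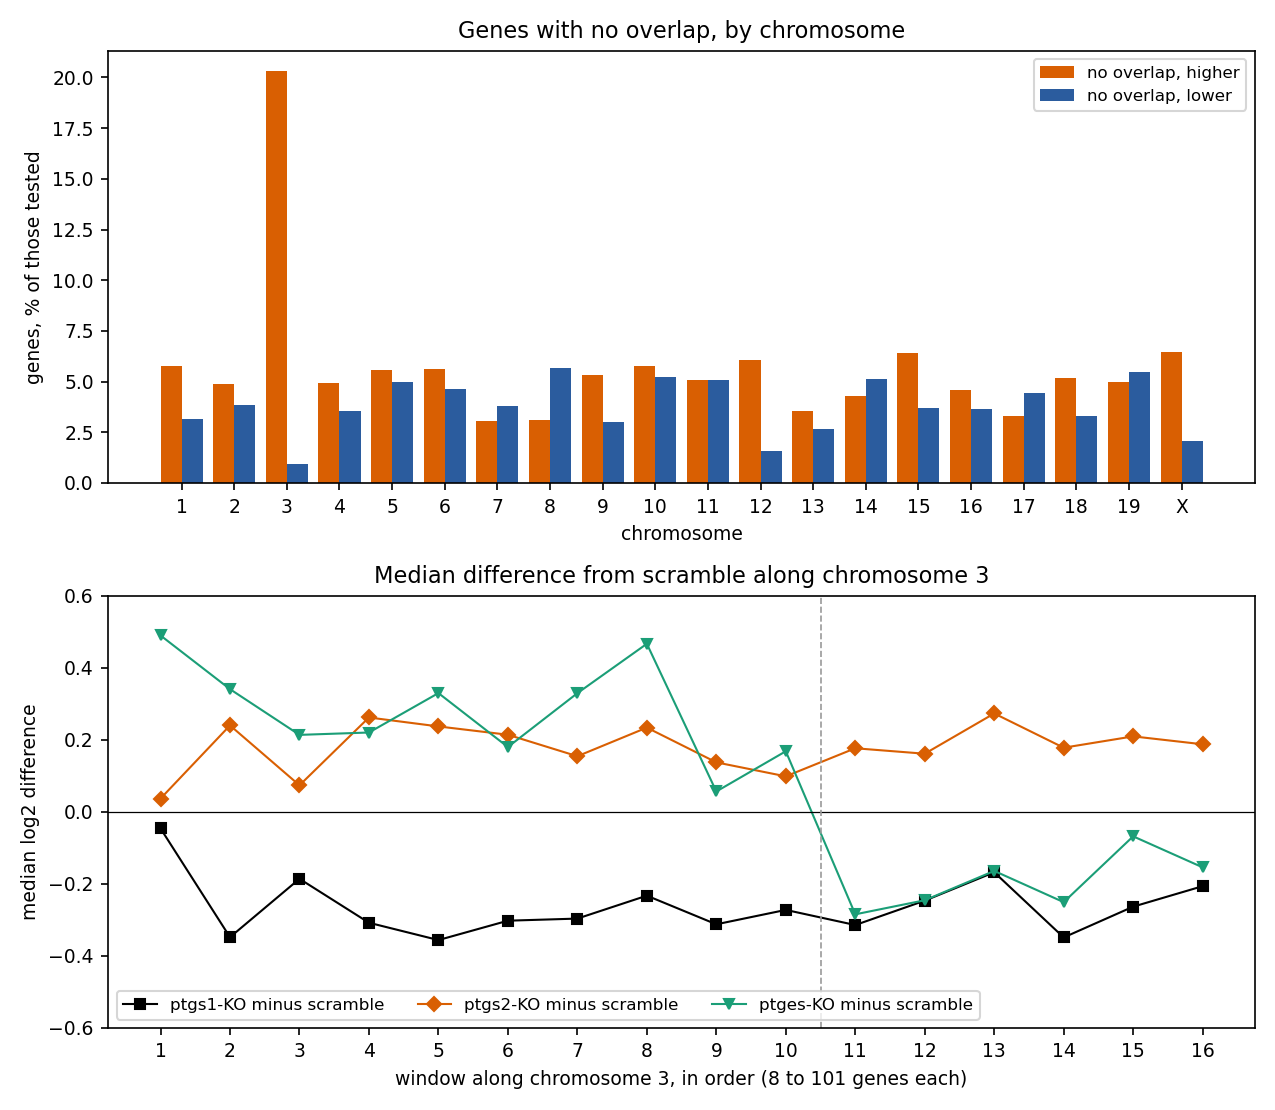
Share of the genes tested on each chromosome that were higher (orange) or lower (blue) with no overlap (top), and median log2 difference from scramble cells on log2(RPKM + 1) in consecutive windows of chromosome 3 for each knockout line (bottom). Chromosome 3 stands out with 20.3% higher genes. Along it *ptgs1*-KO cells lie below scramble cells in all 16 windows, *ptgs2*-KO cells above, and *ptges*-KO cells above in windows 1 to 10 and below in windows 11 to 16, with the dashed line between them.

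The genes at the edge of the rule show how small a separation could be. *Cs*, citrate synthase, was just inside, at 236 to 266 RPKM (median 239) in the knockouts against 197 to 236 RPKM (median 208), where a *ptges*-KO and a *ptgs1*-KO sample nearly met. *Prkcdbp*, a caveolar protein, was just inside on the lower side, at 85.7 to 131 RPKM (median 114) against 131 to 169 RPKM (median 149). The nearest genes outside were 2 rows with no gene symbol, listed at 0 in all samples but 1, and, among genes above 0 in all samples and chosen after the values were seen, *Phf14* (18.1 to 21.6 RPKM against 11.1 to 18.1 RPKM) and *Zfp28* (2.8 to 3.32 RPKM against 3.32 to 4.91 RPKM), whose groups touched at one value. *Cs* and *Prkcdbp* kept the separation in 3 of 4 scalings. Of the 74 list members with no overlap, 12 lost it under at least 1 scaling, and all of them kept the sign of their difference. Of the 67 named members that rose or fell, 48 did so in each of the 12 fits without 1 sample, and 19 failed in at least 1. Among these, *Lamb2*, *Mmp11*, *Ccna2*, *Rrm2*, and *Ccng1* failed in 3, *Ptges3*, *Adamts14*, and *Lama5* in 4, and *Kitl* and *Mertk* in 5. The samples whose absence ended most of these calls were *ptgs2*-KO replicate 3 (14 genes) and scramble replicates 1 and 3 (13 each), and that of *ptgs1*-KO replicate 3 ended 0.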

How the data were processed

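RNA-seq of 12 samples of murine melanoma cells was analyzed, 3 for each of 4 lines assigned by their labels. The authors deposited RPKM for 30705 gene names, of which 12082 were 0 in all samples. Each sample summed to a similar total, so another scaling cannot be told apart from RPKM. Libraries had been sequenced as 101 bp paired-end reads, and mm10 is the build in the submitters' processing notes. The labels name both an unstranded and a directional kit, and the aligner, the counter, and the use of strand are not given in the sources used here. Text descriptions of genes in the table were not used, and no column of another sample was present. Whole reads were not recovered, and the depth is an estimate from genes with transcripts of at most 1500 bases, so no counting intervals were computed.

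Values were analyzed as log2(RPKM + 1), with a pseudocount of 1, for the 11282 genes averaging 1 RPKM or more. A fold change on this scale understates the change of low genes. One limma (version 3.58.1, R 4.3.3) model with 4 groups, lmFit, and eBayes with a trend gave all tests. P-values were adjusted by Benjamini-Hochberg across the tested genes, with a threshold of 0.05. The procedure was tested on simulated data. Named genes were the 12 higher and 12 lower genes with the largest least line difference (the smallest in size of the 4 differences of line means), all members of 21 pathway lists with no overlap, the 3 targeted genes, and the genes just inside and outside the rule, except 1 list member that is not reported here. The members and lists were chosen with earlier results of these data known. Fold differences are ratios of the means of 6 samples. Positions were matched by symbol to RefSeq GRCm38.p6 for 94.9% of the genes tested. Promoter windows matched 76.7% of the genes tested, under the 80% needed to compare the motifs of members with those of other genes, so no such comparison was made.

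Deviations from line means of *ptgs2*-KO and *ptges*-KO samples with the same number had r of 0.112 to 0.566 over genes. With different numbers r was -0.475 to 0.321, so the ranges overlapped. Same-numbered scramble and *ptges*-KO samples had r of -0.341 to -0.175, and differently numbered ones -0.0453 to 0.247. Where the sample numbers come from is not stated. Alternatives were other pseudocounts, filters, scalings, units, a replicate block, and leaving out each sample or line.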

Additional observations from a re-analysis of the deposited data

Results flagged for a closer look

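Of 212 sets of 6 values examined, 8 held a sample whose gap to its nearest neighbor exceeded the 95% critical share of the range of the 6 in Dixon's test, which chance gives in about 1 of 20 sets. On log2(RPKM + 1), *ptges*-KO replicate 1 stood above the other 5 knockout samples for *Ddah1* (gap of 0.72 of the range), *Vegfc* (0.692), and *Cs* (0.785). *Nefm* was listed at 0 in *ptges*-KO replicate 2 (0.665), and *Mmp11* was low in *ptgs1*-KO replicate 3 (0.693). Of the 2 rows with no gene symbol just outside the rule, one was above 0 only in *ptgs2*-KO replicate 3 (1) and the other only in *ptgs1*-KO replicate 1 (1). The share of the summed values in the ribosomal RNA rows, *Rn45s* and one with no gene symbol, was 13.5% in *ptgs1*-KO replicate 3, with a gap of 0.887 of the range of the 6 scramble and *ptgs1*-KO samples.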

How the results depend on the processing

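No named gene reversed its direction in any setting tried. A filter at a mean of 10 RPKM left 280 lower genes with no overlap and 582 genes that differed between *ptgs1*-KO and scramble cells. Median ratio scaling gave 406 genes that rose, and quantile normalization 1570 that differed between *ptgs1*-KO and scramble cells. In the average contrast 0 genes passed with line means as the unit and 2160 with 2 groups of 6 in the model. Without the *ptgs1*-KO line 471 genes rose and 385 fell, and 1174 and 985 had no overlap. Without the scramble line these counts were 675, 696, 1180, and 1166, as fewer comparisons had to be passed. A limit of 1 on the size of the log2 difference left 153 genes in the average contrast, 7 that rose, 16 that fell, 195 between *ptges*-KO and *ptgs2*-KO cells, and 140 between *ptgs1*-KO and scramble cells.

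Leaving out 1 sample gave 2897 to 3710 genes in the average contrast, 131 to 279 that rose, 129 to 252 that fell, 622 to 774 higher and 457 to 661 lower with no overlap, 1104 to 2236 between *ptges*-KO and *ptgs2*-KO cells (1104, 1193, and 1209 without *ptges*-KO replicates 2 and 3 and *ptgs2*-KO replicate 1), and 645 to 1163 between *ptgs1*-KO and scramble cells (645 and 658 without scramble replicates 1 and 2). The scaling without the 20 highest genes and the fit without chromosome 3 were chosen after seeing the values. The share of chromosome 3 genes that were higher was 12.8% with no filter on low values, 47.2% without the scramble line, and 18.6% to 25.3% in the other settings. With the replicate block 3784 genes passed the average contrast, 270 rose, and 221 fell, and the pairing moved no count by more than 1.5 times. Depth limits the low genes most, and the cause of the differences between scalings was not tested.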
